A study of Mus musculus with 6 samples.

Results

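The integrated stress response was followed here through 10 genes in KPC1199 mouse pancreatic tumour cells with and without knockdown of Acsl5, a gene for an enzyme that activates long-chain fatty acids. The genes are Gdf15, a secreted stress cytokine, the transcription factor genes Atf4, Atf5, Atf3, Ddit3 and Nupr1, and the regulator and effector genes Trib3, Ppp1r15a, Chac1 and Sesn2. They were taken by gene name from the deposited tables, where 11 of 57508 rows carry one of these names, because Ddit3 names 2 rows. The second Ddit3 row, a gene model of 105 bases inside the first, was at 0 to 3.41 expected counts and is not described further. The set was chosen by what is known of the pathway and by the high Gdf15 values in the knockdown libraries, so the difference between the groups is given for these genes as a description, with no p-value, and counts of calls among them stand only beside the share of all genes called. All 10 passed the filter on low counts.

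In the integrated stress response, kinases that sense amino acid shortage, misfolded protein in the endoplasmic reticulum, double-stranded RNA or haem and mitochondrial defects phosphorylate the translation factor eIF2. General translation then falls, while the mRNA of Atf4 is translated better, and ATF4 with partners of the C/EBP family switches on genes of amino acid supply, redox balance and, through CHOP (the product of Ddit3), cell death. GDF15 is released by stressed cells, including those of many tumours, and lowers food intake through a receptor in the hindbrain.

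There were 3 libraries labelled WT and 3 labelled ACSL5 knockdown, all of the KPC1199 line, with no other allele, treatment or time given. Library names start with siACSL5 in both groups, with CY3 added in WT and a number in knockdown, which the labels do not explain, and knockdown libraries are titled KO although their genotype field reads knockdown. The series gives as its purpose the role of ACSL5 in pancreatic ductal adenocarcinoma. Separate cultures are not mentioned in any label, so that p-values reflect only how far these libraries differ, and that spread may be technical.

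Library totals lay between 21794244 and 29996194 expected counts. Acsl5 stood at 265.2 to 342.4 CPM (counts scaled by library size and TMM) in WT and 49.8 to 57.2 CPM in knockdown libraries, with no overlap. Its log2 fold change over all 6 libraries was -2.43, which edgeR did not call (adjusted p = 0.062). Without WT replicate 1 it was -2.32 and called (adjusted p = 5.9e-08 by edgeR). On the other strand, Zdhhc6 (mean 80.8 CPM) overlaps Acsl5 by 26430 bases, counted over whole genes. WT replicate 1 stood apart: across genes, which are not independent replicates, its log2 CPM had Pearson correlations of 0.895 to 0.916 with the rest, and pairs of the other 5 libraries had 0.969 to 0.990. Fold changes of the 10 genes are therefore given over 6 libraries and over 5 libraries without WT replicate 1. Leaving this library out was chosen with an earlier account of these data known, in which it stood apart. Other pathway genes are given over 5, with the value over 6 where it turns or differs by more than 1.5 times. All 7 epithelial markers were detected, with Krt19 at 2860 to 6562 CPM. The summed level of 6 leukocyte markers was 3.33 to 5.46 CPM, nearly all of it Cd68, with Adgre1 and Cd3e at 0 in every library. Summed levels were 0.13 to 0.27 CPM for 3 endothelial markers, with Cdh5 at 0, and 0.44 to 3.22 CPM for 4 acinar markers, with Cela2a and Ptf1a at 0. Of 4 fibroblast markers, Pdgfra was at 46.9 to 91.4 CPM, Pdgfrb at 7.54 to 23.9 CPM, Col1a1 at 6.77 to 12.5 CPM and Dcn at 0 in 5 of the 6 libraries. Over 5 libraries Pdgfra fell by 0.62 on the log2 scale (SE 0.0531) and Pdgfrb rose by 0.73 (SE 0.104), both called by edgeR; their part in the results was not tested. In bulk RNA, a difference in the number of cells and one in the RNA per cell cannot be told apart.

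Gdf15 encodes a distant member of the TGF-beta family that is made as a precursor and cleaved before secretion. In WT replicates 1, 2 and 3 it stood at 4.64, 5.81 and 3.77 CPM, and in knockdown replicates 1, 2 and 3 at 61.8, 28.8 and 33.9 CPM. The lowest knockdown library was thus far above the highest WT library, and knockdown replicate 1 was the highest of all. The WT mean was 4.74 ± 1.02 CPM (SD, n = 3). The knockdown mean was 41.5 ± 17.8 CPM (SD, n = 3). These values rest on 85 to 131 expected counts in WT and 781 to 1473 in knockdown libraries. The log2 fold change, knockdown minus WT, was 3.13 (SE 0.362) over 6 libraries and 3.12 (SE 0.558) over 5. It ranked 19 of 14679 tested genes from the highest down over 6 libraries and 44 of 15152 over 5.

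**Figure D1:**
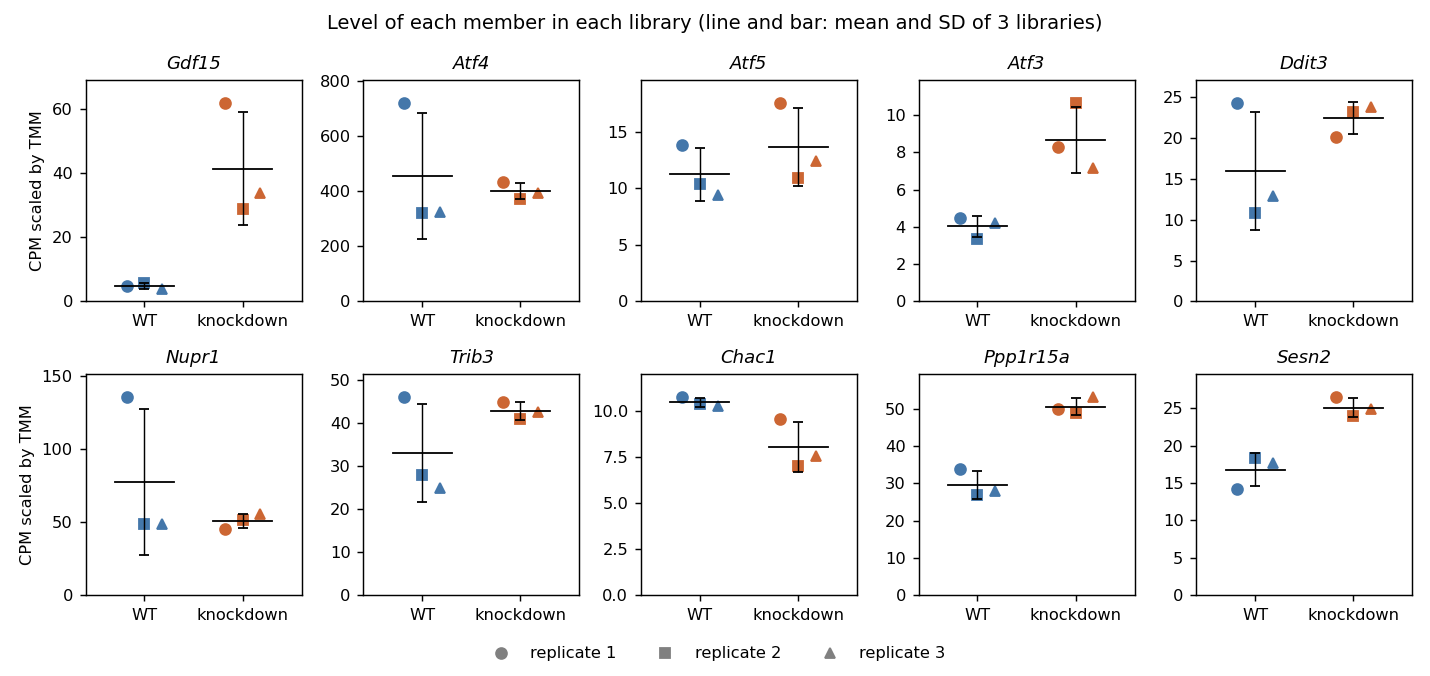
Level of each of the 10 genes, in CPM scaled by TMM on axes that start at 0, with 1 point per library (circle, square and triangle for replicates 1, 2 and 3) and the mean and SD of the 3 libraries of each group in black. Gdf15 lies between 3.77 and 5.81 CPM in WT and between 28.8 and 61.8 CPM in knockdown libraries, while Atf4, Ddit3, Nupr1 and Trib3 have WT replicate 1 far above the other WT libraries.

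Gdf15 (ENSMUSG00000038508) has 2 exons on the minus strand of chromosome 8 (GRCm38, GENCODE M21), between 70629393 and 70632456. The 250 bases before its start at the RefSeq promoter (GRCm38.p6, chr8:70632457-70632706, minus strand) are shown because this gene had the largest difference of the 10, and they hold none of the motifs searched below.

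Gdf15: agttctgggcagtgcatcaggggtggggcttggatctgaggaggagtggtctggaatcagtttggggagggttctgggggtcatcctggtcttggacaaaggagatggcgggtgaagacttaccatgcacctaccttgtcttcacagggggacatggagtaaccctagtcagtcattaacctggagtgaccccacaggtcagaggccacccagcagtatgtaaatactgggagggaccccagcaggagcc

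All 10 genes matched a RefSeq promoter, in 12 windows of 300 bases (250 before and 50 after the start). On both strands, TGATGCAA, the element that heterodimers of ATF4 and C/EBP factors bind, was found in the windows of Atf3, Chac1 and Nupr1, and in 0.895% of all 32851 windows. With both middle bases left free (TGNNGCAA, which takes in the first motif), 6 of the 10 genes matched, Atf5, Sesn2 and Trib3 being the others. Counted by window, this was 6 of their 12 windows, against 11.4% of all windows. The cyclic AMP response element TGACGTCA, which ATF and CREB dimers bind, was found for Ppp1r15a and in 1.79% of windows. Its form TNACGTCA, which takes in TGACGTCA, was found also for Atf3 and in 2.93% of windows. The stretches below, all from RefSeq on GRCm38.p6 and all upstream of the start, show the matches of 5 of these 7 genes, those of Atf5 and Sesn2 being left out, in capitals on the strand of the gene, where TTGCATCA is the reverse complement of TGATGCAA. They lie at chr1:191183334-191183463 (minus strand, Atf3), chr2:119350992-119351076 (plus, Chac1), chr7:126625553-126625600 (minus, Nupr1), chr2:152344066-152344113 (minus, Trib3) and chr7:45526269-45526300 (minus, Ppp1r15a). A match is a description of these letters, not of binding.

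Atf3: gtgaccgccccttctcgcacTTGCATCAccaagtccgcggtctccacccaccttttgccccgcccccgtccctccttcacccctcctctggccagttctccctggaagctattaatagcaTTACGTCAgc
Chac1: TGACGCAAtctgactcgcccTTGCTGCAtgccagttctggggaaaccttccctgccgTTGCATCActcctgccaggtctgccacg
Nupr1: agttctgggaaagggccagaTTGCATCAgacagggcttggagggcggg
Trib3: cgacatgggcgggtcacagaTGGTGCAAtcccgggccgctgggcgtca
Ppp1r15a: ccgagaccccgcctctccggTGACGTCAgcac

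The 3 genes with TGATGCAA did not share a direction. Over 5 libraries, Atf3 had a log2 fold change of 1.17 (SE 0.196), Nupr1 of 0.04 (SE 0.0861) and Chac1 of -0.38 (SE 0.143).

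Atf4 (ENSMUSG00000042406, chromosome 15, 80255184 to 80257541, plus strand) encodes the factor at the centre of the response, and much of its control is translational, which mRNA levels do not show. Its mRNA stood at 718.4, 319.3 and 325.2 CPM in WT replicates 1, 2 and 3 and at 432.8, 373.3 and 395.1 CPM in knockdown replicates 1, 2 and 3. The knockdown libraries lay above WT replicates 2 and 3 and below WT replicate 1. The log2 fold change was -0.18 (SE 0.350) over 6 libraries and 0.30 (SE 0.0568) over 5, so its sign depends on 1 library. Deposited TPM gave 374.4, 311.3 and 315.6 in WT and 425.1, 372.0 and 387.2 in knockdown replicates 1, 2 and 3. There only knockdown replicate 2 lay below WT replicate 1. The step from counts to TPM differed between genes and libraries, beyond division by a fixed gene length. From WT replicate 1 to 2, Atf4 went from 13156 to 7203 counts, and Ppp1r15a from 623 to 609 counts but from 35.8 to 19.8 TPM. The reason was not tested. Among the 10 genes Atf4 had the highest TPM in every library.

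Atf5 (ENSMUSG00000038539, chromosome 7, 44812256 to 44816658, minus strand) encodes a related factor, also controlled by translation and tied to stress in mitochondria. It stood at 13.9, 10.4 and 9.45 CPM in WT and at 17.5, 10.95 and 12.4 CPM in knockdown replicates 1, 2 and 3. In CPM the groups overlapped only through WT replicate 1, and knockdown replicate 1 was the highest library. The log2 fold change of Atf5 was 0.28 (SE 0.245) over 6 libraries and 0.44 (SE 0.194) over 5. With knockdown replicate 1 also left out, these became 0.05 and 0.24. Atf5 overlaps Nup62 on the other strand by 571 bases in GENCODE M21, and since strandedness is not given in the sources used here, reads from the overlap cannot be told apart. Nup62 had a mean of 97.4 CPM.

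Atf3 (ENSMUSG00000026628, chromosome 1, 191170296 to 191218039, minus strand) is a short-lived factor induced by many stresses and by growth signals. It stood at 4.48, 3.37 and 4.22 CPM in WT and at 8.27, 10.6 and 7.16 CPM in knockdown replicates 1, 2 and 3, with no overlap. Fitted log2 fold changes were 1.11 (SE 0.220) over 6 libraries and 1.17 (SE 0.196) over 5. On the TPM scale the gap was narrow, with 5.79 in WT replicate 3 and 6.26 in knockdown replicate 3.

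Ddit3 (ENSMUSG00000025408, chromosome 10, 127290774 to 127296288, plus strand) encodes CHOP, which promotes death of cells under lasting stress. It stood at 24.2, 10.8 and 12.95 CPM in WT and at 20.2, 23.2 and 23.9 CPM in knockdown replicates 1, 2 and 3. WT replicate 1 lay above all knockdown libraries and the other WT libraries well below them. In TPM, WT libraries were at 35.4, 26.7 and 31.4 and knockdown libraries at 54.4, 57.7 and 58.6, with no overlap. For Ddit3 the log2 fold change was 0.49 (SE 0.317) over 6 libraries and 0.90 (SE 0.117) over 5. Ddit3 overlaps Mars, a tRNA synthetase gene on the other strand, by 68 bases.

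Nupr1 (ENSMUSG00000030717, chromosome 7, 126623249 to 126630861, minus strand) encodes a small chromatin protein induced by stress that acts beside ATF4. It stood at 135.6, 48.9 and 48.9 CPM in WT and at 45.3, 51.8 and 55.4 CPM in knockdown replicates 1, 2 and 3. Apart from WT replicate 1 its values lay within a narrow range and overlapped. Nupr1 had a log2 fold change of -0.61 (SE 0.433) over 6 libraries and 0.04 (SE 0.0861) over 5.

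Trib3 (ENSMUSG00000032715, chromosome 2, 152337422 to 152344032, minus strand) encodes a pseudokinase that is a target of ATF4 and CHOP and restrains both. It stood at 46.1, 28.1 and 25.1 CPM in WT and at 45.1, 41.0 and 42.6 CPM in knockdown replicates 1, 2 and 3. As with Ddit3, WT replicate 1 was above the knockdown libraries and WT replicates 2 and 3 were below them. In TPM the groups did not overlap, with 20 to 22.8 in WT and 34.3 to 37.0 in knockdown libraries. Trib3 had a log2 fold change of 0.38 (SE 0.249) over 6 libraries and 0.68 (SE 0.0771) over 5.

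Ppp1r15a (ENSMUSG00000040435, chromosome 7, 45522916 to 45526268, minus strand) encodes GADD34, the inducible subunit that directs a phosphatase to eIF2 and so ends the response. It stood at 34.02, 26.997 and 27.8 CPM in WT and at 50.04, 48.8 and 53.2 CPM in knockdown replicates 1, 2 and 3, with no overlap. For Ppp1r15a the log2 fold change was 0.78 (SE 0.142) over 6 libraries and 0.87 (SE 0.0691) over 5. The knockdown libraries varied little, with an SD of 2.23 CPM about a mean of 50.7 CPM (n = 3). In TPM the gap was narrower, with 35.8 in WT replicate 1 and 39.9 in knockdown replicate 2.

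Chac1 (ENSMUSG00000027313, chromosome 2, 119351229 to 119354381, plus strand) encodes an enzyme that breaks down glutathione and is a target of ATF4 and CHOP. It stood at 10.8, 10.4 and 10.3 CPM in WT and at 9.57, 7.01 and 7.56 CPM in knockdown replicates 1, 2 and 3. It was the only one of the 10 genes with all knockdown libraries below all WT libraries in CPM. The log2 fold change was -0.38 over 6 libraries (SE 0.170) and over 5 (SE 0.143), opposite in sign to those of Ddit3, Trib3 and Atf3. In TPM, WT replicate 1 was at 5.98, below the 7.46 to 10.04 of the knockdown libraries, and WT replicates 2 and 3 were at 10.9 and 10.7.

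Sesn2 (ENSMUSG00000028893, chromosome 4, 132492032 to 132510501, minus strand) encodes sestrin 2, which senses leucine and restrains mTORC1. It stood at 14.3, 18.4 and 17.7 CPM in WT and at 26.4, 23.97 and 24.8 CPM in knockdown replicates 1, 2 and 3, with no overlap. Sesn2 had a log2 fold change of 0.58 (SE 0.148) over 6 libraries and 0.46 (SE 0.0849) over 5. Of the 10 genes, only Sesn2 was lower in CPM in WT replicate 1 than in both other WT libraries.

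**Figure D2:**
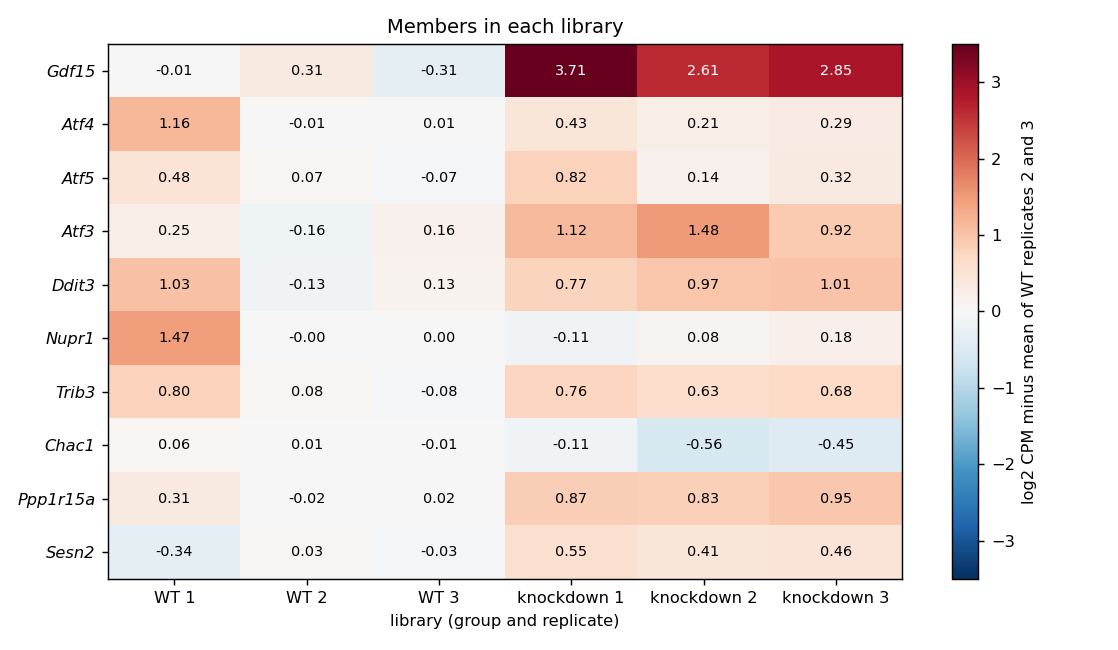
Log2 CPM of each gene (rows) in each library (columns) minus the mean of WT replicates 2 and 3, in colour and as a number. Gdf15 is at 2.61 to 3.71 in the knockdown libraries, Chac1 is negative in all of them, and WT replicate 1 is at 1.16 for Atf4, 1.03 for Ddit3 and 1.47 for Nupr1.

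Over 6 libraries, edgeR called none of the 10 genes and none of all 14679 genes (0%), with adjustment by Benjamini-Hochberg and a threshold of 0.05. At an unadjusted p below 0.05 there were 4 of the 10 genes and 2351 of all genes. DESeq2 called 4 of the 10 and 1127 of all, and limma-voom 0 and 8. In CPM, 4 genes (Gdf15, Atf3, Ppp1r15a and Sesn2) had all knockdown libraries above all WT libraries, which held for 18.7% of all genes, and Chac1 had them all below, which held for 15.6%. In TPM, 7 genes were above, Atf5, Ddit3 and Trib3 being added, which held for 25.6% of all genes, and none was below, which held for 5.61%. TPM moved the median log2 fold change of all genes over 6 libraries from -0.02 to 0.26. Relative to that median, Atf4 was at -0.02, Trib3 at 0.48 and Ddit3 at 0.60 with log2(TPM + 1).

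Over 5 libraries, 7 of the 10 genes were called higher, Gdf15, Atf4, Atf3, Ddit3, Trib3, Sesn2 and Ppp1r15a, where 16.3% of 15152 genes were, and 0 were called lower, where 18.0% were. The median log2 fold change of the 10 was 0.57, against -0.01 for all genes. Since this contrast was in view when the genes were chosen, nothing is read from these counts. Over the 17 settings the log2 fold change ranged from 2.70 to 3.44 for Gdf15, from 0.76 to 0.93 for Ppp1r15a and from 0.78 to 1.03 for Ddit3.

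**Figure D3:**
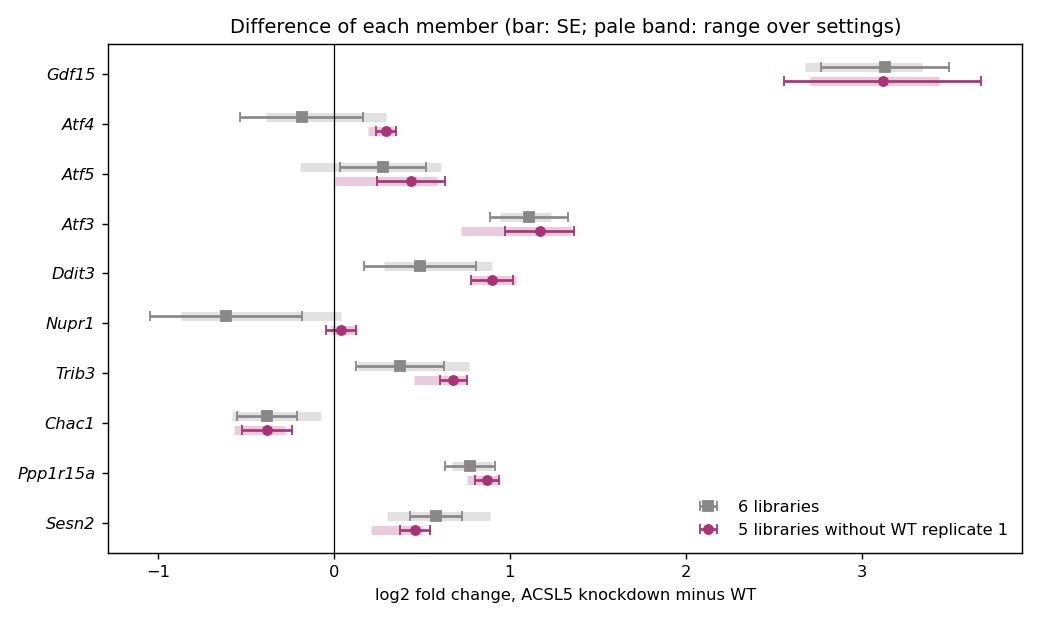
Log2 fold change of each gene, knockdown minus WT, over 6 libraries (grey squares) and over 5 libraries without WT replicate 1 (purple circles), with SE as bars and the range over all settings as pale bands. Gdf15 is near 3.1 in both, Chac1 is at -0.38 in both, and Atf4 and Nupr1 change sign between them.

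The log2 fold changes of all genes over 5 libraries moved with GC content, the median being 0.31 for the richest 10% and -0.16 for the poorest 10%. Gdf15 (61.3%) and Atf5 (61.7%) transcripts were richer in GC than 98.1% and 98.5% of tested genes, and those of Sesn2 (58.7%), Trib3 (58.2%) and Chac1 (57.4%) were also high, while Ddit3 was at 45.6%. With the trend of each library with GC content removed, the log2 fold change was 2.70 for Gdf15, 0.46 for Trib3 and 0.99 for Ddit3. Sesn2 was at 0.21, Atf5 at 0.01, Atf4 at 0.19 and Chac1 at -0.57. Over 6 libraries the same step gave 2.68 for Gdf15, 0.14 for Trib3, 0.54 for Ddit3 and 0.30 for Sesn2. It gave -0.19 for Atf5, -0.26 for Atf4 and -0.58 for Chac1.

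Within the knockdown group, replicate 1 was the highest for 6 of the 10 genes, replicate 3 for 3 and replicate 2 for 1. The difference of replicate 1 from the mean of replicates 2 and 3 in log2 CPM was 0.98 for Gdf15, 0.59 for Atf5 and 0.39 for Chac1. It was between -0.24 and 0.17 for the other 7 genes. Its median was 0.07 over the 10% of genes richest in GC and 0.04 over the poorest 10%.

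Genes most like Gdf15 were taken by Pearson correlation of log2 CPM over the 5 libraries, among 65 genes with a symbol, a mean of at least 5 CPM and a sufficient spread. They were Hspa1b (r = 0.999), Map1s (0.999), Sf3b5 (0.998), Ndufaf8 (0.998) and Rbm42 (0.997). Each had knockdown replicate 1 highest and both WT libraries low, so that r over these 5 points largely describes a gap between the groups shared with Gdf15. Over 6 libraries r was 0.977 for Hspa1b, 0.952 for Map1s, 0.962 for Sf3b5, 0.875 for Ndufaf8 and 0.710 for Rbm42. Like Gdf15, Map1s, Rbm42 and Hspa1b had transcripts rich in GC, above 98.7%, 98.4% and 91.9% of tested genes. Ndufaf8 was above 81.4% and Sf3b5 above 30.1%. The part of GC content in this likeness was not tested. The inducible chaperone gene Hspa1b was at 14.7, 8.82 and 6.17 CPM in WT and at 129.2, 52.6 and 63.6 CPM in knockdown replicates 1, 2 and 3, and may share reads with its near copy Hspa1a. Among the 10 genes, Sesn2 (0.997) and Trib3 (0.993) were closest to Gdf15 over 5 libraries, and Nupr1 (0.05) and Chac1 (-0.60) farthest. With WT replicate 1 included this order changed: Sesn2 was at 0.931, Ppp1r15a at 0.929, Atf3 at 0.869, Trib3 at 0.636, Nupr1 at -0.42 and Chac1 at -0.67, and Atf4 went from 0.967 to -0.06.

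The genes around these 10 were described from 12 lists of known function, over 5 libraries, since edgeR called no gene over 6. These 5 libraries were chosen with an earlier result known, and only WT replicates 2 and 3 then stand for WT. Where 16.3% of all 15152 genes were called higher and 18.0% lower, 90 of 169 listed genes tested were called, 48 higher and 42 lower. Leaving out WT replicate 2 as well gave 53, and leaving out WT replicate 3 gave 51; both fits take the spread from the knockdown group alone. With log2(TPM + 1) 55 listed genes were called. Of all 13881 genes then tested, 1459 were higher and 1008 lower, against 2471 and 2722 of 15152 with CPM.

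Among 21 genes of eIF2, its kinases, exchange factor and phosphatases, 7 rose and 7 fell, with a median of -0.05, or -0.16 over 6 libraries. Eif2ak3, which encodes the kinase PERK of the endoplasmic reticulum, fell by 0.59 on the log2 scale (SE 0.0633), and Eif2ak4, which encodes the amino acid sensor GCN2, fell by 0.58 (SE 0.0740). WT replicate 1 was low for both, and over 6 libraries they were at -0.32 and -0.38. Eif2ak2, for the kinase that senses double-stranded RNA, fell by 0.26 (SE 0.0505), or by 0.11 over 6 libraries. Eif2ak1, for the haem-regulated kinase, rose by 0.19 (SE 0.0540). Subunits of the exchange factor eIF2B went both ways, with Eif2b5 at -0.77 (SE 0.0530) and Eif2b4 at 0.65 (SE 0.0636), or 0.40 over 6 libraries. Among bZIP partners and relatives, 3 of 16 rose and 4 fell (median 0.02, or 0.03 over 6 libraries). With log2(TPM + 1) 1 rose and 1 fell. The ATF4 partner gene Cebpg was at -0.49 (SE 0.0658) and Cebpb at 0.90 (SE 0.276), although with WT replicate 1 included Cebpb was at -0.30.

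Of the relatives of the 10 genes, 2 of 7 tested rose and 2 fell, against 2 and 1 with log2(TPM + 1). Chac2, a paralog of Chac1, fell by 0.86 (SE 0.0808) and Sesn3, a sestrin gene, fell by 0.67 (SE 0.0829), or by 0.42 over 6 libraries. Trib2 rose by 0.40 (SE 0.0635), and Ppp1r15b, the constitutive counterpart of Ppp1r15a, rose by 0.33 (SE 0.0550). Of the relatives of Gdf15, Gdf10 was at 0 in every library, Gdf9 at 0 to 0.33 CPM and Gdf11 at 15.4 to 19.2 CPM.

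ATF4 targets of amino acid synthesis and transport had 2 of 20 higher, 8 lower and a median of -0.09, or -0.06 over 6 libraries. With log2(TPM + 1) 2 of 19 were higher and 4 lower. Slc3a2, the shared chain of several amino acid transporters, rose by 0.84 (SE 0.0485), with a mean of 169.2 CPM in WT replicates 2 and 3 (SD 2.83) and 306.7 CPM in knockdown libraries (SD 9.99). WT replicate 1, at 315.9 CPM, lay within the knockdown range, and the value over 6 libraries was 0.49 (adjusted p = 0.42 by edgeR). Slc1a4 was at -0.50 (SE 0.0575), the serine phosphatase gene Psph at -0.40 (SE 0.0702) and Pck2 at -0.40 (SE 0.0571), all called lower, and Psph and Pck2 were at -0.79 and -0.68 over 6 libraries. Asns, for asparagine synthetase, had a mean of 155.6 CPM in WT replicates 2 and 3 and 156.5 CPM in knockdown libraries (log2 fold change -0.01, SE 0.0472, adjusted p = 0.93 by edgeR). WT replicate 1 had 283.0 CPM of Asns, and over 6 libraries the log2 fold change was -0.34. Of 20 cytosolic tRNA synthetase genes, 3 rose and 6 fell (median -0.07, or -0.11 over 6 libraries), and with log2(TPM + 1) 3 rose and 1 fell. Aars was at 0.32 (SE 0.0456) and Lars at -0.42 (SE 0.0493).

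Among 15 tested other targets of ATF4 and CHOP, 6 rose and 3 fell (median 0.13), while with log2(TPM + 1) 5 rose, 1 fell and the median was -0.08. Ifrd1 rose by 0.64 (SE 0.127), the mTORC1 inhibitor gene Ddit4 by 0.52 (SE 0.125) and the autophagy receptor gene Sqstm1 by 0.50 (SE 0.0668), though Ifrd1 was at -0.11 with log2(TPM + 1). Ifrd1 in WT replicate 1, at 226.2 CPM, was above every knockdown library (131.2 to 175.8 CPM), and over 6 libraries its value was 0.11. Ero1a, an oxidase of the endoplasmic reticulum that CHOP induces, fell by 1.16 (SE 0.0460). Bbc3, for the death-promoting protein PUMA, was below 5 CPM and rose by 2.08 (SE 0.486). The stress hormone gene Fgf21 had a mean of 0.19 CPM and was not tested.

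Chaperone and sensor genes of the endoplasmic reticulum gave 5 higher and 5 lower of 20 (median 0.02, or -0.12 over 6 libraries), and 2 and 3 with log2(TPM + 1). Calr was at -0.60 (SE 0.0416), Edem1 at -0.61 (SE 0.0489) and Xbp1 at -0.39 (SE 0.0594), and Syvn1 was at 0.63 (SE 0.0673). Over 6 libraries Calr was at -0.90 and Xbp1 at -0.69. Mitochondrial chaperones and proteases had 4 higher and 1 lower of 10 (median 0.11), with Clpp at 0.56 (SE 0.120), or 0.31 over 6 libraries, and Hspa9 at 0.25 (SE 0.0472). With log2(TPM + 1) 2 were higher and 0 lower. Of 18 genes of p53 and its targets, where Gdf15 and Sesn2 also belong, 3 rose and 6 fell (median -0.04, or -0.10 over 6 libraries). Plk2 was at 0.87 (SE 0.108) and Zmat3 at -0.55 (SE 0.0655). With log2(TPM + 1) the p53 list had 3 higher, 2 lower and a median of 0.05.

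Gfral, the receptor of GDF15, was at 0 in every library, and its partner Ret had a mean of 0.23 CPM. Of the protease genes, Furin rose by 0.50 (SE 0.0563), from a mean of 82.1 CPM in WT replicates 2 and 3 to 117.7 CPM. Furin in WT replicate 1 was at 25.1 CPM, and the value over 6 libraries was 0.90 (adjusted p = 0.37 by edgeR). Pcsk6 and Mmp14 were at -0.06 (SE 0.0602) and 0.04 (SE 0.0521) over 5 libraries and at 0.20 and -0.25 over 6. Of 13 immediate early genes, a class that Atf3 is often counted in, 9 rose and 3 fell (median 0.79). Jun rose by 1.42 (SE 0.350), Dusp1 by 1.27 (SE 0.136), Ier2 by 1.04 (SE 0.210) and Fosl1 by 0.83 (SE 0.156), and Egr1 fell by 0.68 (SE 0.0958). Of 11 heat shock genes, 5 rose and 0 fell (median 0.16, or 0.04 over 6 libraries), against 3 and 0 with log2(TPM + 1). Hspa1a was at 3.14 (SE 0.427), Hspa1b at 3.45 (SE 0.657) and the co-chaperone gene Bag3 at 0.47 (SE 0.0772).

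**Figure D4:**
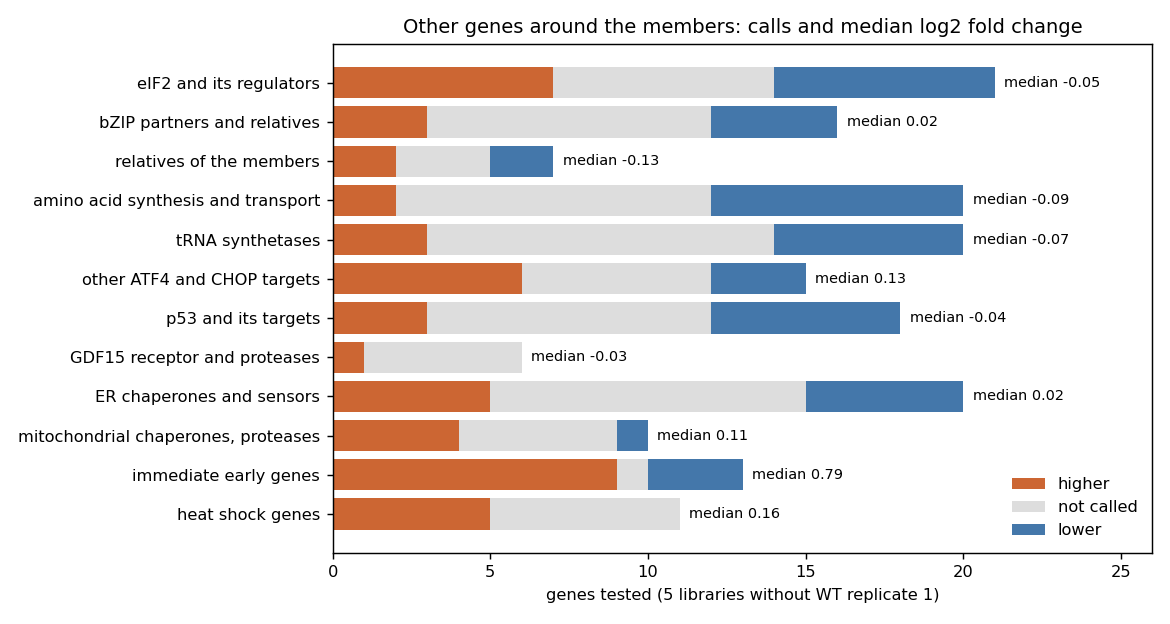
Number of tested genes in each of 12 lists that were called higher (orange), not called (grey) or called lower (blue) over 5 libraries without WT replicate 1, with the median log2 fold change of the list at the end of each bar. Immediate early genes have 9 higher and a median of 0.79, and amino acid genes have 2 higher, 8 lower and a median of -0.09.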

How the data were processed

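Expected counts and TPM per gene were both deposited by the authors, made with fastp, HISAT2, StringTie and DESeq2 per the submitters' processing notes, which give no versions or roles and name human builds (hg38, GRCh38) although the gene identifiers are of mouse. Neither strandedness nor the quantifier is given in the sources used here. Counts were rounded, filtered with filterByExpr, scaled by TMM and tested in edgeR 4.0.16 (R 4.3.3; glmQLFit with robust estimation, glmQLFTest, two-sided) with Benjamini-Hochberg adjustment over all genes tested. The SE is the log2 fold change divided by the root of F. Alternatives were DESeq2 1.42.0, limma 3.58.1 (voom, and trend on log2 TPM with a pseudocount of 1 or 0.1), other scalings and filters, removal of each library's trend with GC content (lowess), a replicate block and leaving out each library. Showing deposited TPM beside CPM levels was chosen after seeing the data. The code of the test was tested on simulated counts with known changes. Positions are from GENCODE M21, and GC content is that of the longest transcript.

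The genes, the lists and the 5 libraries without WT replicate 1 were chosen with earlier results of these data known. Listed genes are named from those that a rule takes: up to 4 called genes per list with the largest log2 fold changes over 5 libraries at a mean of at least 5 CPM, with the strongest moving the other way. Eif2ak1, Eif2ak2, Asns, Bbc3, Fgf21, Gfral, Ret, Pcsk6, Mmp14, Gdf9, Gdf10, Gdf11 and Nup62 were named after their values were seen.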

Additional observations from a re-analysis of the deposited data

How the results depend on the processing

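The log2 fold change of Gdf15 ran over all settings from 2.68 to 3.34 over 6 libraries and from 2.70 to 3.44 over 5. Over 6 libraries, the 0 genes called became 1127 with DESeq2, 8 with limma-voom, 5 without robust estimation, 4 without a filter, 3 with the GC trend removed and 1 with library totals, and 0 to 5193 when each library was left out in turn, 5193 being without WT replicate 1. Of the 10 genes, DESeq2 called 4, no filter 1, and leaving out a library 0 to 7. Of the listed genes DESeq2 called 28, and leaving out a library gave 0 to 90. Over 5 libraries, 5193 calls became 2467 with log2(TPM + 1) and 2569 with log2(TPM + 0.1), and 2599 to 6188 when a further library was left out. The 7 of 10 became 6 to 8, and the 90 listed genes became 55 with either TPM setting and 51 to 105 when a further library was left out. The totals for the 10 genes do not always hold the same genes or only higher ones. Among settings over 5 libraries that kept both WT libraries, Gdf15 was not called with limma-voom, with no filter or without knockdown replicate 3. Atf3 was not called with either TPM setting, and Sesn2 was not called with the GC trend removed. Atf5 was called higher with no filter and without knockdown replicate 2. Chac1 was called lower with limma-voom, with no filter, with the GC trend removed, with the replicate block and without knockdown replicate 1. The cause of these changes was not tested. Signs reversed for Hspb1 with the GC trend removed (-0.13) and for Ifrd1 with TPM (-0.11 in both settings).

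The replicate numbers were not shown to pair the libraries: same-numbered libraries had correlations of deviations of -0.11, 0.01 and -0.13. With the replicate block, 0 genes were called over 6 libraries and 5753 over 5, with 0 and 8 of the 10 genes. Chac1, called lower, was among these 8.

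In WT libraries Gdf15 rests on 85 to 131 counts and Atf3 on 76 to 130, which limits their precision.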
